A study of Mus musculus with 16 samples.

Results

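The genes described here sense sterol in the cell, carry it between membranes or pass it out of the cell. They are Srebf1, Srebf2, Scap, Insig1, Insig2, Stard4, Abca1, Abcg1 and Apoe, 9 of the 18194 genes measured. They were taken by name, with earlier results of these data known, so shares of them set against all genes are descriptions. They are covered by 18 probe sets that the platform annotation gives to no other gene, out of 45101 on the array, and for each gene the probe set with the highest mean log2 intensity over all arrays leads. The neural crest is a migratory population of the vertebrate embryo from which Schwann cells, autonomic ganglia and much of the facial mesenchyme arise. Primary mouse crest cells were read with 16 Affymetrix arrays, 4 for each of 4 groups, namely cells primed to glia (labelled Glia), to neurons (Autonomic) or to mesenchyme (Mesenchymal), and cells that were not primed (NCSCs). All cells were kept in crest stem cell medium. The treatment label gives instructive growth factors for all 16 arrays, the unprimed ones included, and it names neither the factors nor the length of exposure. The sources used here state no genotype, strain or age. They also do not tell whether the 4 samples of a group are independent preparations, and the p-values therefore reflect the spread among these samples, which may be technical.

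Cells hold their membrane cholesterol within narrow limits through SREBP transcription factors, which Srebf1 and Srebf2 encode. Scap carries the SREBP precursor from the endoplasmic reticulum to the Golgi, where proteases release the active factor, and Insig1 and Insig2 hold the complex back when sterol is plentiful. SREBP-2 mainly drives genes of cholesterol synthesis and uptake, SREBP-1c mainly those of fatty acid synthesis, and Insig1 is itself an SREBP target, whose RNA is often read as a measure of SREBP activity. Excess sterol is turned into oxysterols that activate LXR receptors, which induce the exporters Abca1 and Abcg1 and the lipoprotein Apoe in many cell types.

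Values are the authors' intensities on the log2 scale, and changes are log2 differences between groups, tested with limma over all 18194 genes and called at a Benjamini-Hochberg adjusted p under 0.05. Array medians lay between 3.05 and 3.15, and pairs of arrays correlated as closely across groups (0.898 to 0.948) as inside them (0.896 to 0.949). On the first principal component, which held 14.4% of the variance, Autonomic replicate 1 scored -39.7, among the unprimed arrays (-49.6 to -21.2) and apart from Autonomic replicates 2 to 4 (28.9 to 57.3). Group means of 7 of 8 neural crest markers exceeded 4 times the array median in every group. Of the defining markers of the labelled lineages, 1 of 6 peripheral glial markers did so in Glia against 2 of 6 in NCSCs, and 1 of 6 autonomic neuron markers in Autonomic against 0 of 6 in NCSCs, so most were not seen at that level. Mesenchyme and smooth muscle markers did so for 6 of 8 in each primed group and 5 of 8 in NCSCs. None of 12 myeloid markers did in any group, with summed linear levels of 68.1 to 96.9 in Glia, 71.1 to 85.9 in Autonomic, 74.8 to 303.1 in Mesenchymal and 70.0 to 74.8 in NCSCs arrays.

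Of the 9 genes, Insig1 fell in glia-primed and in neuron-primed cells, and no other gene passed in any comparison. Insig1 was 6.80-fold lower in Glia than in NCSCs and 7.66-fold lower in Autonomic than in NCSCs, while in Mesenchymal cells it did not pass. Stard4, a cytosolic sterol carrier, had lower values than every unprimed array in all Glia and Autonomic arrays without passing on its lead probe set. Srebf1, Srebf2, Scap, Insig2 and the export genes did not pass in any of the 7 comparisons made. Lower calls made up 1 of 9 here against 0.324% of all genes in Glia, and 1 of 9 against 0.302% in Autonomic cells. In Mesenchymal cells 0 of 9 passed in limma against 0.022% of all genes in either direction, and 0 of 9 had an unadjusted p under 0.05 against 7.7% of all genes.

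**Figure D1:**
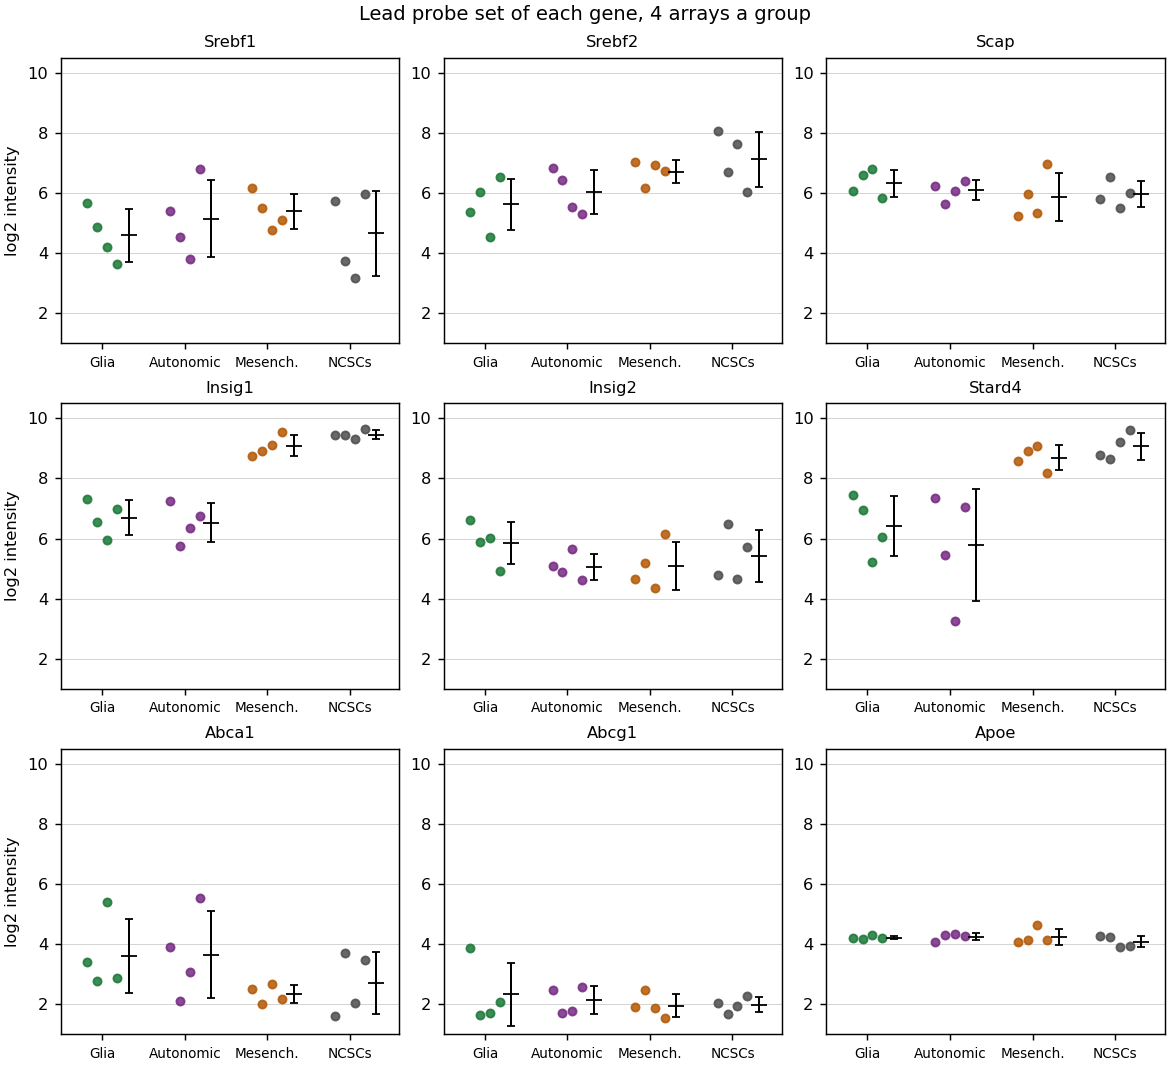
Log2 intensity (vertical axis) of the lead probe set of each of the 9 genes in 16 arrays, grouped as Glia, Autonomic, Mesenchymal and NCSCs; points are arrays in order of replicate number and bars are the mean ± SD of 4. Insig1 and Stard4 were the genes whose Glia and Autonomic arrays all lay below all NCSCs arrays, while Abcg1 and Apoe stayed under 5 in all arrays.

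The regulators of sterol sensing are given first, with the transcription factor genes. Srebf2 measured 5.38, 6.04, 4.55 and 6.54 in Glia, 6.85, 6.45, 5.53 and 5.30 in Autonomic, 7.02, 6.18, 6.93 and 6.74 in Mesenchymal, and 8.09, 6.71, 7.64 and 6.05 in NCSCs arrays. From low to high the group means ran Glia, Autonomic, Mesenchymal, NCSCs, and each group overlapped its neighbours in that order. Its log2 change was -1.50 in Glia (95% confidence interval -2.56 to -0.43, adjusted p = 0.275), -1.09 in Autonomic (-2.15 to -0.03, adjusted p = 0.491) and -0.40 in Mesenchymal cells (-1.47 to 0.66, adjusted p = 0.894). The other Srebf2 probe set, 1452174_at, gave group mean differences of -0.65, -0.98 and -0.56 against NCSCs in the same order, so it put Autonomic and not Glia lowest. A fall of Srebf2 RNA was not established on the lead probe set, whose interval for Glia holds slight and several-fold falls alike. The other probe set was not tested alone, and its arrays overlapped between all groups.

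Srebf1, which encodes SREBP-1a and SREBP-1c, varied more between replicates than between groups. It measured 5.68, 4.87, 4.20 and 3.65 in Glia, 5.42, 4.54, 3.81 and 6.80 in Autonomic, 6.16, 5.51, 4.79 and 5.11 in Mesenchymal, and 5.73, 3.75, 3.18 and 5.99 in NCSCs arrays. Unprimed cells alone spanned 3.18 to 5.99, so all groups overlapped. Its log2 changes of -0.06, 0.48 and 0.73 in Glia, Autonomic and Mesenchymal cells had adjusted p-values of 0.86 or more. Intensities of the single Srebf1 probe set cannot separate the 2 SREBP-1 forms.

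Scap, the escort protein of the SREBP precursors, ranged from 5.84 to 6.79 in Glia, 5.64 to 6.41 in Autonomic, 5.24 to 6.97 in Mesenchymal and 5.50 to 6.52 in NCSCs arrays. The groups overlapped throughout, and the changes were 0.37 (95% confidence interval -0.40 to 1.14), 0.13 (-0.63 to 0.90) and -0.08 (-0.85 to 0.69). Its other probe set averaged 2.57 to 3.01 in the 4 groups, below the array medians. These intervals leave out a change of Scap as large as that of Insig1 in either neural condition.

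Insig1, which retains the SREBP and Scap complex in the endoplasmic reticulum, was the only one of the 9 genes that passed. It measured 7.31, 6.54, 5.94 and 7.0 in Glia, 7.26, 5.74, 6.36 and 6.74 in Autonomic, 8.75, 8.93, 9.11 and 9.56 in Mesenchymal, and 9.44, 9.44, 9.32 and 9.66 in NCSCs arrays. All 8 neural-primed arrays lay below all 8 other arrays, and the unprimed arrays were the closest to one another (SD 0.14, n = 4). In linear units Glia arrays read 61.4 to 158.8 and Autonomic arrays 53.45 to 153.5, against 639.3 to 807.9 in NCSCs arrays.

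The log2 change of Insig1 was -2.77 in Glia (SE 0.32, limma adjusted p = 0.0011) and -2.94 in Autonomic cells (SE 0.32, adjusted p = 0.000787). In Mesenchymal cells it was -0.38 (95% confidence interval -1.07 to 0.32, adjusted p = 0.83), and 1 Mesenchymal array, replicate 4, lay within the unprimed range. Set directly against Mesenchymal cells, Insig1 was lower by 5.24-fold in Glia (log2 change -2.39, adjusted p = 0.00561) and by 5.90-fold in Autonomic cells (log2 change -2.56, adjusted p = 0.00356), so the change differed between neural and mesenchymal priming by a test of that difference. It was the 1 of 9 genes called lower in each, against 0.154% and 0.209% of all genes. Glia and Autonomic cells differed from each other by 0.17 (95% confidence interval -0.52 to 0.87, adjusted p = 0.977), a comparison in which limma called 0 of 9 against 0.011% of all genes, and 0 of 9 against 6.24% had an unadjusted p under 0.05. The mean of the primed groups changed by -2.03 against NCSCs (adjusted p = 0.00451), again 1 of 9 called lower against 0.324% of all genes. That value averages 2 groups with a fall and 1 that did not pass, and with the Gapdh ratio described next as a covariate it did not pass (adjusted p = 0.183).

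Measures of RNA quality differed between groups, in a different pattern on each control. The 3' to 5' log2 ratio of the Gapdh control probe sets was 2.95 ± 0.39 in Glia, 2.85 ± 0.24 in Autonomic, 2.96 ± 0.22 in Mesenchymal and 2.35 ± 0.19 in NCSCs arrays (SD, n = 4 each). The same ratio of the actin control was -0.17 ± 0.08 in Glia, -0.50 ± 0.28 in Autonomic and -0.28 ± 0.15 in Mesenchymal, against -0.53 ± 0.16 in NCSCs arrays, so Autonomic and NCSCs arrays lay close on it. Glia and NCSCs arrays overlapped on the Gapdh ratio (2.44 to 3.33 against 2.20 to 2.58). They did not overlap on the actin ratio (-0.24 to -0.07 against -0.70 to -0.39), which was not fitted as a covariate. With the Gapdh ratio as a covariate the Insig1 change was -2.49 in Glia (adjusted p = 0.0446) and -2.71 in Autonomic cells (adjusted p = 0.0219). Xist, the X-inactivation RNA, measured 2.61 to 5.34 in Glia, 3.15 to 10.58 in Autonomic and 2.68 to 11.22 in Mesenchymal, against 6.39 to 10.52 in NCSCs arrays, so Glia and NCSCs arrays did not overlap in it. With Xist as a covariate the Insig1 change was -2.92 in Glia (adjusted p = 0.0186) and -2.97 in Autonomic cells (adjusted p = 0.00172). Autonomic and Mesenchymal arrays span the gap in Xist between Glia and NCSCs arrays, and the fit draws on the spread of Xist inside all groups. Over these Xist ranges Insig1 was 5.74 to 7.26 in Autonomic and 8.75 to 9.56 in Mesenchymal arrays. From Glia and NCSCs arrays alone, the Insig1 change and the Xist difference cannot be told apart.

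Among markers, the crest receptor gene Ngfr also fell, by 1.87 in Glia (limma adjusted p = 0.0479) and by 2.75 in Autonomic cells (adjusted p = 0.00554). The mesenchyme marker Col1a2 rose by 2.05 in Glia (adjusted p = 0.0335) and did not pass in Autonomic or Mesenchymal cells. Its means were 10.73 in Glia, 10.03 in Autonomic and 10.63 in Mesenchymal, against 8.68 in NCSCs arrays. All Mesenchymal arrays (10.30 to 11.45) lay above all NCSCs arrays (8.10 to 9.36). The mean of the primed groups rose by 1.79 (limma adjusted p = 0.0286), so the rise was not particular to Glia. The summed linear level of mesenchyme and smooth muscle markers was 3883 to 4607 in Glia, 1002 to 5622 in Autonomic and 2092 to 8129 in Mesenchymal arrays, against 463 to 1691 in NCSCs arrays. Neural tube markers had median changes of -1.37 in Glia, -0.89 in Autonomic and -0.69 in Mesenchymal cells, with 0 of 4 called. Their summed linear level was 12.1 to 81.3 in Glia, 23.97 to 1164 in Autonomic and 43.8 to 813 in Mesenchymal arrays, against 42.4 to 1013 in NCSCs arrays, and 0, 1, 2 and 2 of the 4 exceeded 4 times the array median in these groups. The part of these markers in the Insig1 result was not tested. Without Autonomic replicate 1, whose Insig1 was the highest of its group, the Autonomic change was -3.18. The arrays read bulk RNA, so fewer cells with a transcript and less of it per cell cannot be told apart.

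Insig1 has a single probe set here, 1454671_at, so no second probe set checks it. The gene lies on chromosome 5 at 28071412 to 28078662 (GRCm38.p6), and its promoter is shown because SREBP acts on the start regions of its target genes. The promoter of Srebf2, on chromosome 15, stands beside it. RefSeq promoters of build GRCm38.p6 were in the table for 7 of the 9 genes, and the 250 bases before the start were searched on both strands for TCACNCCAC (core of the sterol regulatory element), CCAAT (bound by NF-Y, a partner of SREBP), GGGCGG (bound by Sp1) and AGGTCA repeated after any 4 bases (an LXR direct repeat). After the sequences were seen, the shorter TCACNCCA, contained in the first motif, was added. Capitals mark CCAAT on either strand and TCACNCCA, and both sequences run 5′ to 3′ on the plus strand.
Insig1 promoter, chr5:28071162-28071411: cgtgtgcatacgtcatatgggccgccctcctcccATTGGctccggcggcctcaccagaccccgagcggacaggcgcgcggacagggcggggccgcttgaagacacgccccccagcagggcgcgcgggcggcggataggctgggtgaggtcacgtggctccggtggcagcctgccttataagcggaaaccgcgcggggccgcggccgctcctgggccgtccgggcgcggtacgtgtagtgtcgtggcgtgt
Srebf2 promoter, chr15:82147019-82147268: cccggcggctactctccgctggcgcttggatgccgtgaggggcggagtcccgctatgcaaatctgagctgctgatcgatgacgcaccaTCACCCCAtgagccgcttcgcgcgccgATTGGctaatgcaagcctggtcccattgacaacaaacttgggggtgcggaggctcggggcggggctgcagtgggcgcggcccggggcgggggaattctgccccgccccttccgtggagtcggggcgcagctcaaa

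The Srebf2 promoter held TCACCCCA at 162 to 155 bases before the start, and an NF-Y box on the minus strand at 135 to 131 bases. The same TCACCCCA stood in 1 of the Apoe promoters, at 213 to 206 bases. The Insig1 promoter held an NF-Y box at 216 to 212 bases, 3 Sp1 boxes, and neither sterol motif in this window. Of 32851 promoters of the same length, 1.05% held TCACNCCAC, 3.67% TCACNCCA, 33.8% CCAAT, 32.7% GGGCGG and 0.0152% the LXR repeat. The full TCACNCCAC and the exact LXR repeat were in none of the 14 promoters of these genes. A match describes letters only, and the absence of one says nothing of binding.

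Insig2, the second retention protein, is less dependent on SREBP for its transcription than Insig1. It measured 6.60, 5.87, 6.0 and 4.93 in Glia, 5.08, 4.90, 5.65 and 4.61 in Autonomic, 4.65, 5.19, 4.37 and 6.16 in Mesenchymal, and 4.77, 6.49, 4.65 and 5.71 in NCSCs arrays. The groups overlapped, and the changes of 0.45, -0.35 and -0.31 in Glia, Autonomic and Mesenchymal cells did not pass. Its 95% confidence interval in Glia was -0.57 to 1.46, which does not reach the Insig1 change. Its probe sets disagreed in sign for Glia, where the others gave 0.23 (1417980_a_at) and -0.54 (1417982_at), so no direction is settled.

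**Figure D2:**
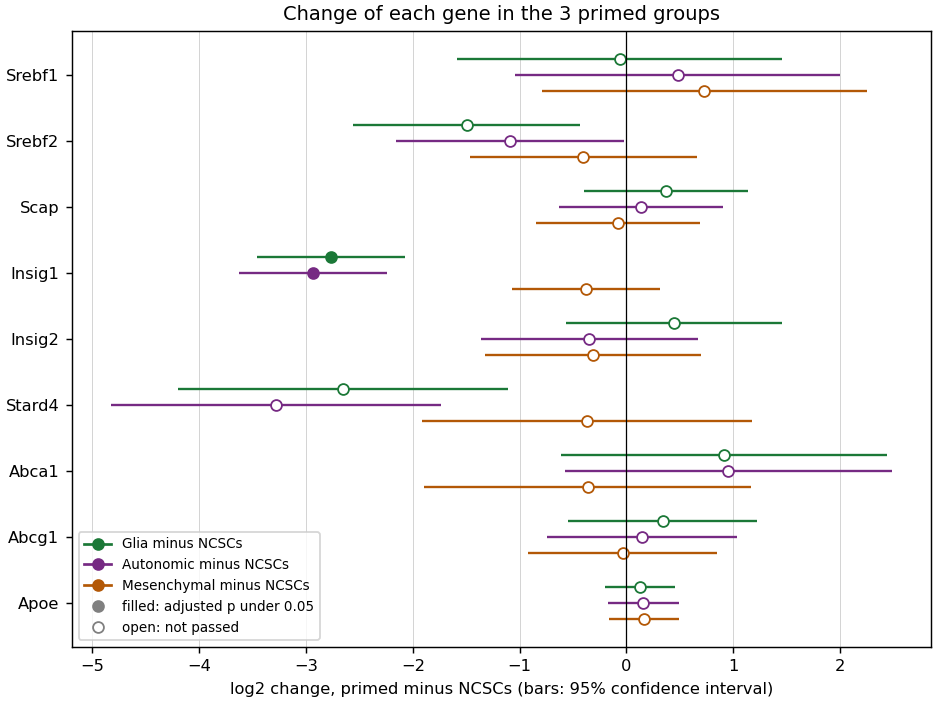
Log2 change of each of the 9 genes (horizontal axis) in Glia, Autonomic and Mesenchymal cells against NCSCs, with 95% confidence intervals from limma; filled points had an adjusted p under 0.05. Insig1 in Glia (-2.77) and Autonomic (-2.94) is filled. The Stard4 and Srebf2 intervals in these groups also lie below 0, although the adjusted p did not pass for either gene.

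Stard4 moves sterol between membranes within the cell, including to the endoplasmic reticulum, and is induced by SREBP-2. Its lead probe set, 1455011_at, measured 7.44, 6.96, 5.21 and 6.04 in Glia, 7.36, 5.45, 3.26 and 7.07 in Autonomic, 8.59, 8.93, 9.08 and 8.18 in Mesenchymal, and 8.77, 8.64, 9.22 and 9.63 in NCSCs arrays. As with Insig1, all 8 neural-primed arrays lay below all 8 other arrays, but they spread from 3.26 to 7.44. Arrays did not overlap for 2 of the 9 genes in Glia and for 2 of 9 in Autonomic cells, namely Insig1 and Stard4, against 7.18% and 5.53% of all genes. Against Mesenchymal cells the same held for 3 of 9 in Glia (with Abca1) and 2 of 9 in Autonomic cells, against 4.55% and 4.17%.

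The log2 change of the Stard4 lead probe set was -2.66 in Glia (SE 0.72, adjusted p = 0.159) and -3.28 in Autonomic cells (SE 0.72, adjusted p = 0.0729). In Mesenchymal cells it was -0.37 (95% confidence interval -1.91 to 1.17). Against Mesenchymal cells it was -2.29 in Glia (adjusted p = 0.404) and -2.91 in Autonomic cells (adjusted p = 0.146). With the mean of the 3 Stard4 probe sets in place of the lead one, the changes were -3.14 in Glia (adjusted p = 0.000706) and -3.10 in Autonomic cells (adjusted p = 0.00117) against NCSCs, and -2.60 (adjusted p = 0.00532) and -2.55 (adjusted p = 0.00568) against Mesenchymal cells. The call thus depends on how probe sets are combined, and also on Autonomic replicate 1, without which the lead probe set passed in Autonomic cells (-3.81, adjusted p = 0.0189), and on Autonomic replicate 3, without which it passed in Glia (-2.66, adjusted p = 0.037).

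On all 3 Stard4 probe sets Glia and Autonomic averaged below Mesenchymal and NCSCs arrays, but Autonomic was lowest on the lead one and on 1429239_a_at, and Glia on 1429240_at. Probe set 1429239_a_at measured 5.68, 3.00, 3.27 and 7.13 in Glia, 4.86, 3.53, 4.19 and 5.05 in Autonomic, 6.05, 7.43, 7.93 and 6.86 in Mesenchymal, and 7.69, 8.69, 7.84 and 8.15 in NCSCs arrays. Probe set 1429240_at measured 2.14, 1.97, 2.42 and 2.13 in Glia, 2.86, 2.43, 5.63 and 2.32 in Autonomic, 5.29, 5.24, 6.39 and 4.64 in Mesenchymal, and 5.42, 6.45, 5.10 and 5.52 in NCSCs arrays. Autonomic replicate 3 was the lowest of all arrays on the lead probe set, at 3.26, and the highest of its group on 1429240_at, at 5.63. Glia arrays on 1429240_at lay below the array medians, so the size of that difference (-3.46 against NCSCs) is rough.

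**Figure D3:**
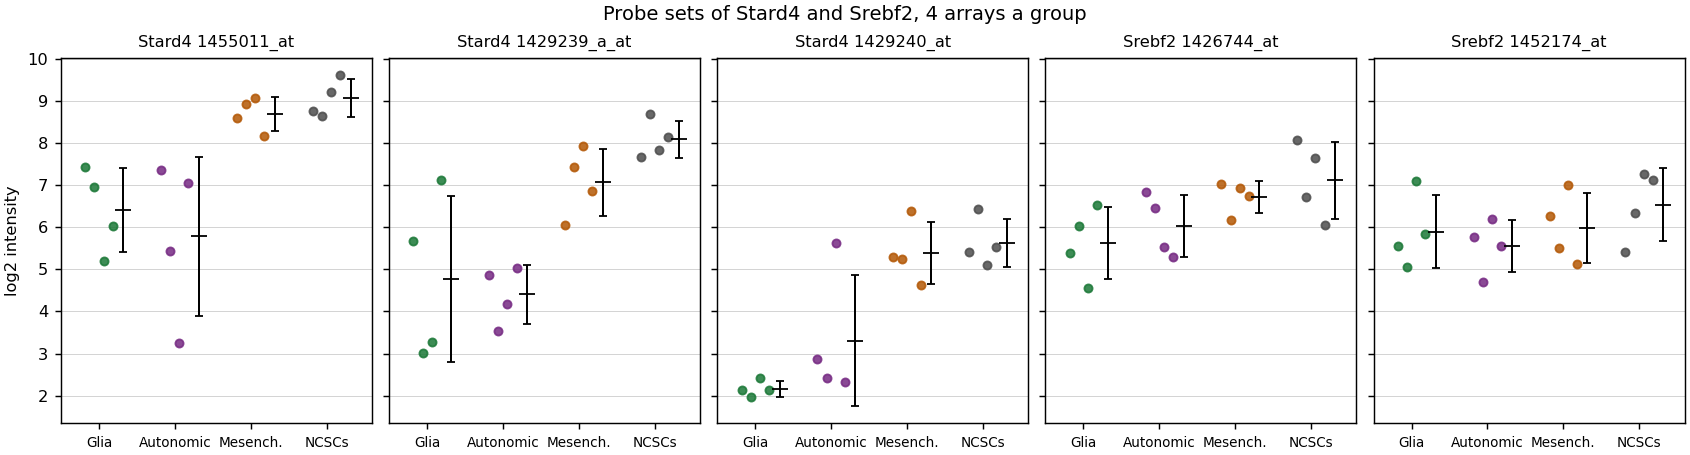
Log2 intensity (vertical axis) of the 3 Stard4 and 2 Srebf2 probe sets in the 4 arrays of Glia, Autonomic, Mesenchymal and NCSCs; bars are the mean ± SD. All 3 Stard4 probe sets averaged lower in Glia and Autonomic than in Mesenchymal and NCSCs arrays, whereas the groups overlap on both Srebf2 probe sets.

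The export genes were dim. Abca1, which loads cellular cholesterol onto apolipoproteins, measured 3.40, 2.76, 5.41 and 2.85 in Glia, 3.91, 2.11, 3.05 and 5.51 in Autonomic, 2.48, 2.00, 2.67 and 2.16 in Mesenchymal, and 1.59, 3.70, 2.02 and 3.45 in NCSCs arrays. Glia replicate 3 and Autonomic replicate 4 were the highest, at over 5, and the other 14 arrays were under 4. Its changes of 0.91 in Glia and 0.95 in Autonomic cells did not pass (95% confidence intervals -0.61 to 2.44 and -0.57 to 2.48). Arrays did not overlap between Glia and Mesenchymal cells, a difference of 1.28 that did not pass (adjusted p = 0.794). On the other Abca1 probe sets the highest Glia array was replicate 2, at 4.53 (1450392_at) and 2.51 (1421839_at), so the high arrays were not the same across probe sets.

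Abcg1, a transporter that passes sterol to lipoprotein particles, ranged from 1.63 to 3.87 in Glia, 1.69 to 2.56 in Autonomic, 1.53 to 2.48 in Mesenchymal and 1.68 to 2.27 in NCSCs arrays. Glia replicate 1, at 3.87, was the one array above the array medians. Whether any array exceeded background was not measured. Changes were 0.34, 0.15 and -0.03 in Glia, Autonomic and Mesenchymal cells, with adjusted p-values of 0.854 or more.

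Apoe, the main lipoprotein ligand secreted by glia and macrophages, measured 4.18, 4.17, 4.28 and 4.20 in Glia, 4.06, 4.28, 4.33 and 4.27 in Autonomic, 4.06, 4.12, 4.62 and 4.15 in Mesenchymal, and 4.26, 4.22, 3.91 and 3.92 in NCSCs arrays. The groups overlapped and the whole range was 3.91 to 4.62, the narrowest of the 9 genes. Its changes were 0.13 in Glia (95% confidence interval -0.20 to 0.46), 0.16 in Autonomic (-0.17 to 0.49) and 0.16 in Mesenchymal cells (-0.17 to 0.49). On this single probe set a change of Apoe by 2-fold in either direction lay outside the interval in each primed group, but whether 4.2 is above background was not measured, and a probe set at background would not show a change.

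The other genes of the pathway were taken as 6 lists and read against all genes, whose median change was between -0.01 and 0.01 in each comparison. The lists too were chosen with earlier results of these data known. Their shares of called genes are therefore descriptions and no independent support. Enzymes of cholesterol synthesis, the main SREBP-2 targets, fell for 12 of 17 analysed in Glia and 10 of 17 in Autonomic cells, against 0.324% and 0.302% of all genes, with medians of -2.21 and -1.82. None of the 17 rose in either, where 0.187% and 0.132% of all genes did. In Mesenchymal cells 0 of 17 passed, with a median of -0.19. Directly against Mesenchymal cells, 9 of 17 were lower in Glia and 7 of 17 in Autonomic cells, where 0.154% and 0.209% of all genes were. Mvd, which makes isopentenyl diphosphate, changed by -3.37 in Glia (SE 0.24, adjusted p = 1.75e-05), by -3.59 in Autonomic (adjusted p = 7.39e-06) and by -0.84 in Mesenchymal cells (adjusted p = 0.368). Cyp51, the lanosterol demethylase, changed by -2.49 in Glia (adjusted p = 0.000288), -1.78 in Autonomic (adjusted p = 0.00677) and -0.07 in Mesenchymal cells. Nsdhl, a sterol dehydrogenase, and Sqle, the squalene epoxidase, fell by 3.30 and 2.19 in Glia and by 3.22 and 1.71 in Autonomic cells.

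Enzymes of fatty acid synthesis and desaturation, whose genes respond to SREBP-1c, fell for 4 of 15 in Glia and 3 of 15 in Autonomic cells, against 0.324% and 0.302% of all genes, with medians of -1.03 and -1.19, and 0 of 15 passed in Mesenchymal cells. The desaturase Scd1 changed by -2.38 in Glia (adjusted p = 0.00467) and -2.71 in Autonomic cells (adjusted p = 0.00166), and Scd2 by -2.53 (adjusted p = 0.00487) and -2.37 (adjusted p = 0.00719). Fasn, the fatty acid synthase, and the elongase Elovl6 fell in Glia (-1.68 and -2.09, adjusted p = 0.0335 and 0.0452), and the desaturase Fads1 fell in Autonomic cells (-1.31, adjusted p = 0.0233). Srebf1 itself changed by -0.06 in Glia and 0.48 in Autonomic cells, without passing.

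In the remaining lists no gene passed in any primed group. Among 10 genes of SREBP processing and sterol-regulated turnover the medians were -0.35 in Glia, -0.34 in Autonomic and -0.30 in Mesenchymal cells. Mbtps1, the site-1 protease that makes the first cut in SREBP, changed by -0.50, -0.66 and -0.64 and Mbtps2, the site-2 protease, by -0.66, -0.41 and -0.95 in these groups. Among 12 genes of lipoprotein uptake and endosomal sterol handling the medians were -0.35, 0.10 and -0.16. Scarb1, a receptor for high-density lipoprotein, changed by -1.17, -1.06 and -0.96 (adjusted p = 0.211, 0.276 and 0.532), and Npc2, which hands sterol out of the lysosome, by -0.44, -0.51 and -0.25. Among 19 genes of LXR signalling, export and esterification the medians were 0.19, 0.10 and 0.13, with Nr1h3, which encodes an LXR receptor, at 0.83, 0.06 and 0.00. Among 14 sterol carriers the medians were -0.36, -0.24 and -0.19, and Gramd1a, which draws sterol from the plasma membrane, changed by 1.18, 0.09 and -0.04 (adjusted p = 0.423 in Glia).

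**Figure D4:**
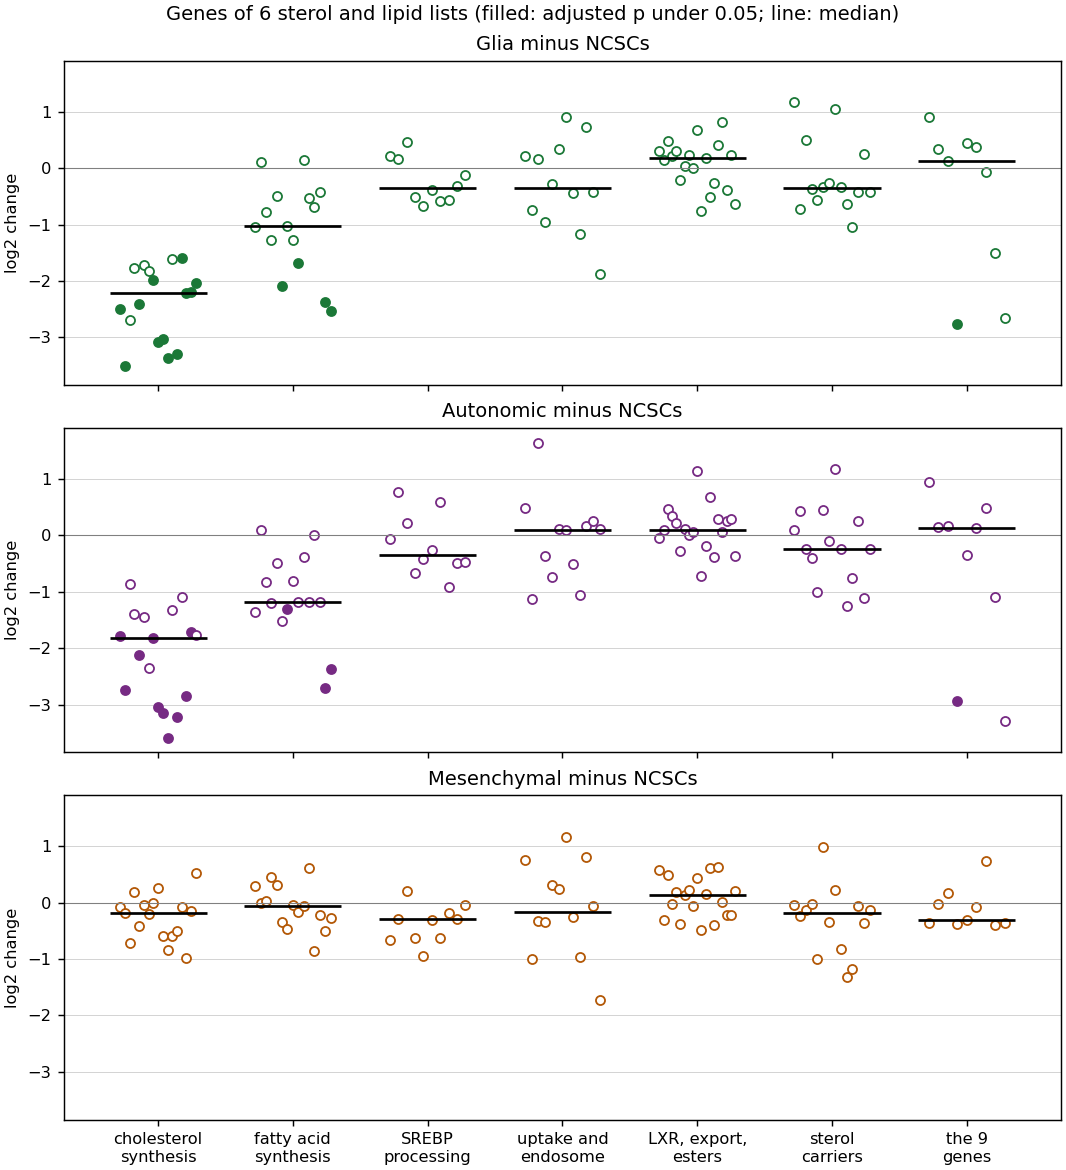
Log2 change against NCSCs (vertical axis) of each analysed gene in 6 lists and of the 9 genes, with a panel for Glia, Autonomic and Mesenchymal cells; points are genes, filled at an adjusted p under 0.05, and lines are medians. Filled points are found for cholesterol synthesis (12 in Glia, 10 in Autonomic), fatty acid synthesis (4 and 3) and Insig1, with none in the Mesenchymal panel.

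Over the 16 arrays the genes with the profile most similar to Insig1 were Scd1 (Pearson r = 0.971), Scd2 (r = 0.962) and Idi1, the isopentenyl diphosphate isomerase (r = 0.961), given as a description over arrays that share their groups. After each group's mean was subtracted, r over the 16 arrays was 0.748, 0.703 and 0.684 for these genes, which were picked for their likeness. It was 0.00526 for Mvd and 0.081 for Nsdhl, whose r over all arrays had been 0.936 and 0.929, so likeness within groups was not shared by all enzymes of the lists. Glia replicate 3 was the lowest Glia array and Autonomic replicate 1 the highest Autonomic array for both Insig1 and Scd1. Insig1 and Stard4 had r = 0.874 over the 16 arrays and 0.527 after group means were subtracted, and Insig1 and Srebf2 had 0.642 and 0.181. All of these values come from the same RNA samples and normalization, over arrays that fall into separate groups.

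**Figure D5:**
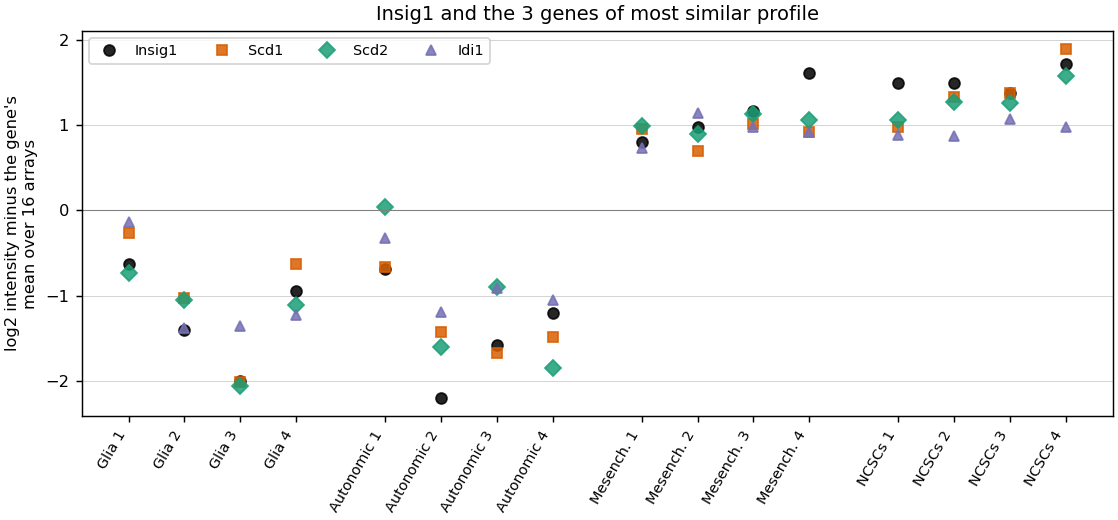
Log2 intensity minus each gene's mean over 16 arrays (vertical axis) for Insig1, Scd1, Scd2 and Idi1 in every array, in the order Glia, Autonomic, Mesenchymal and NCSCs. The 4 genes lie above their means in all Mesenchymal and NCSCs arrays, and Insig1 lies below its mean in all Glia and Autonomic arrays, with the lowest Glia value in replicate 3.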

How the data were processed

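The authors deposited an intensity for each probe set on each array, computed with RMA (background correction, normalization between arrays, summary of probes) per the submitters' processing notes. No RMA version is stated. Per the labels, 2 ug of total RNA entered a one-cycle labelling. Values ran from 1.49 to 31600, hence linear, and log2 was taken without offset. Depth does not apply to arrays, whose number limits the precision. Probe sets with 1 gene symbol (34958) were kept, 932 with several and 9211 with none listed were left out, and symbols were updated by Entrez identifier to GRCm38.p6 (99.4% matched). Per gene the probe set of highest mean was used.

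A group-means model of all 16 arrays was fitted with limma 3.58.1 (lmFit, eBayes) in R 4.3.3, two-sided, for 7 comparisons. Data were simulated for Glia against NCSCs over 18194 genes, with independent normal noise. Changed genes were drawn only from those whose mean lay above the median of all genes. Of these, 8 of 50 were called at 2-fold, 31 of 50 at 4-fold, 45 of 50 at 8-fold and 49 of 50 at 16-fold. Among all calls, 9 of 142 were false. Abca1 and Abcg1 lay below that median, so these rates do not cover them. All 9 genes are described, list genes are named if called (up to 4 a list in each comparison, by adjusted p), and the 3 genes of most similar profile for a called member. List genes named without a call were chosen after their values were seen. Members and lists were chosen with earlier results of these data known. Replicate numbers did not pair the arrays: the deviations from group means of 24 same-numbered pairs correlated at -0.067 to 0.064. Alternatives were the replicate block, a log2 offset of 16, 3 scalings, a filter on dim genes, 2 probe set choices, 2 eBayes settings, array weights, fits of only the groups compared, Gapdh ratio and Xist as covariates, and each array left out.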

Additional observations from a re-analysis of the deposited data

Results flagged for a closer look

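The change of Insig1 against NCSCs differed between primed groups by limma's test of the difference, by -2.39 on the log2 scale for Glia minus Mesenchymal (adjusted p = 0.00561) and by -2.56 for Autonomic minus Mesenchymal (adjusted p = 0.00356), with 4 of 4 arrays of each neural group below 4 of 4 Mesenchymal arrays. Apoe in Mesenchymal replicate 3, at 4.62, stood apart from the other 3 Mesenchymal arrays (4.06 to 4.15). It was the 1 such array among 36 combinations of gene and group, where chance gives about 1 in 20.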

How the results depend on the processing

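The Insig1 calls in Glia and Autonomic cells held under all 30 alternatives, against NCSCs (log2 changes -2.97 to -2.44 and -3.18 to -2.67) and against Mesenchymal cells (-2.59 to -1.99 and -2.81 to -2.25), and the highest adjusted p was 0.0449. With the replicate number as a block they were -2.77 and -2.94 against NCSCs (adjusted p = 0.00238 and 0.00162), and the block changed no count of called genes among the 9. With the mean of all probe sets, which added Stard4, the count of called genes was 2 in place of 1 in Glia, Autonomic and the mean of primed groups against NCSCs and in Glia and Autonomic against Mesenchymal cells. It was also 2 in Autonomic against NCSCs with an offset of 16, with dim genes left out (fewer genes tested) and with array weights, and it was 0 for the mean of primed groups with the Gapdh ratio as a covariate, of which the cause was not tested. Leaving out single arrays gave 1 to 2 in Glia and in Autonomic against NCSCs and in Autonomic against Mesenchymal cells, and 1 throughout for the other comparisons with a call. In Mesenchymal against NCSCs and Glia against Autonomic cells 0 of 9 passed under every alternative run. Centring on housekeeping genes shifted the median of all genes by 0.33 in Glia and 0.25 in Autonomic cells, and Insig1 then changed by -2.44 and -2.69. Genes called over the whole table were then 84 higher and 19 lower in Glia (34 and 59 as reported) and 48 and 23 in Autonomic cells (24 and 55). Signal over background was not measured, which limits Abca1, Abcg1 and Apoe.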
